A study of Mus musculus with 6 samples.

Results

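Vat1 and its paralog Vat1l were 2 of the 24264 genes in the deposited expression table of mouse lumbar dorsal root ganglia, the paired ganglia that hold the cell bodies of sensory neurons. Both were chosen by name, with the difference between the study's groups already known, so their levels and the difference are given as a description, without a test. Both passed the filter on low values, 1 RPKM (reads per kilobase of transcript and per M mapped reads) or more in at least 3 libraries, which left 13118 genes.

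RNA was sequenced from ganglia dissected at E12.5 (embryonic day) on a mixed C57/Bl6 x 129/SvEv background, with 3 control and 3 miR-CKO libraries. The 3 miR-CKO mice were homozygous for miR-183-96-182-flox and carried Wnt1-Cre, which recombines the floxed microRNA cluster in the neural crest lineage, the origin of the sensory neurons and glia of the ganglion. Controls 1 and 3 carried Wnt1-Cre and control 2 was titled WT, so the Cre was shared by 5 of the 6 libraries. Cells outside the neural crest lineage, such as endothelium and blood, keep the cluster in this model. The labels do not say whether ganglia of more than 1 embryo were pooled. The comparison asks how messages of the ganglion differ when the cluster is deleted.

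Vat1 encodes a mostly cytosolic protein of the medium-chain dehydrogenase/reductase superfamily, in the branch of the quinone oxidoreductases. Its name, vesicle amine transport, goes back to a protein of synaptic vesicles in the electric ray, although it is not a transporter. In mammalian cells it is known for binding mitofusins, the proteins that fuse mitochondrial outer membranes, and for moving phosphatidylserine between the endoplasmic reticulum and mitochondria. Vat1l, VAT1-like, encodes its closest relative and is less well understood. The deleted cluster gives miR-183, miR-96 and miR-182, which are made together from 1 precursor in sensory neurons and other sensory cells. A microRNA pairs through its seed, the bases near its 5′ end, with sites in the 3′ untranslated region (3′ UTR) of a message, and paired messages tend to be translated less and degraded faster.

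The mature microRNAs are shown first because their seeds define the sites searched in both genes. Sequences are from RefSeq (GRCm38.p6), 5′ to 3′, with seed bases 2 to 8 in capitals. All 3 lie on the minus strand of chromosome 6, miR-183-5p at 30169711 to 30169732, miR-96-5p at 30169506 to 30169528 and miR-182-5p at 30165962 to 30165986.
miR-183-5p: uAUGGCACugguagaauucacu
miR-96-5p: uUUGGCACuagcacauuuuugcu
miR-182-5p: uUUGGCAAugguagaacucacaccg
The seed of miR-96 shares 6 of its 7 bases with that of miR-183 and also with that of miR-182.

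Vat1 lies on chromosome 11, 101458745 to 101466230, minus strand, in mm10 (GENCODE M21). It has 1 annotated transcript of 6 exons and 2766 bases, with 406 codons and a 3′ UTR of 1448 bases within its last exon. Vat1l lies on chromosome 8, 114205612 to 114374071, plus strand. Its main transcript has 9 exons and 3666 bases, with 417 codons and a 3′ UTR of 2326 bases, also within 1 exon. The longest stretch of bases common to both main transcripts was 13, so reads of the 2 genes can be told apart. A stretch of 226 bases in the first exon of Vat1 overlaps transcripts of Rnd2 on the opposite strand. The kit keeps strand, but the labels do not say whether counting used it. No gene overlapped exons of Vat1l.

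Both 3′ UTRs held the same set of seed matches, shown here as the DNA sense strand of the message in mm10, 5′ to 3′, with the matched bases in capitals. A 7mer-m8 pairs with bases 2 to 8 of the microRNA, a 7mer-A1 pairs with bases 2 to 7 and has an A opposite base 1, and a 6mer pairs with bases 2 to 7 only. Vat1 is read from the minus strand of chromosome 11, with sites at 101459934 to 101459939, 101459851 to 101459857 and 101459334 to 101459340. Vat1l is read from the plus strand of chromosome 8, with sites at 114371911 to 114371917, 114372153 to 114372158 and 114373299 to 114373305.
Vat1, 6mer of miR-96 and miR-182: tgtctgggcccTGCCAAggggacaggggg
Vat1, 7mer-m8 of miR-96: tgctgcttttGTGCCAAggttagccaatc
Vat1, 7mer-A1 of miR-96 and miR-182: cagtccaacacTGCCAAAaatctgtgtat
Vat1l, 7mer-m8 of miR-96: ttggaattaaGTGCCAAtcccattccatg
Vat1l, 6mer of miR-96 and miR-182: cactctttgccTGCCAAcaatcagccatg
Vat1l, 7mer-A1 of miR-96 and miR-182: tgacttcttcaTGCCAAAtatttacctga
Each gene had 1 miR-96 7mer-m8 site, 1 7mer-A1 site that miR-96 and miR-182 share, and 1 further 6mer. Neither 3′ UTR held a match to miR-183, not even its 6mer TGCCAT, and neither held a site of 8 bases. A match is a description of the letters, not a measurement of pairing.

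**Figure D1:**
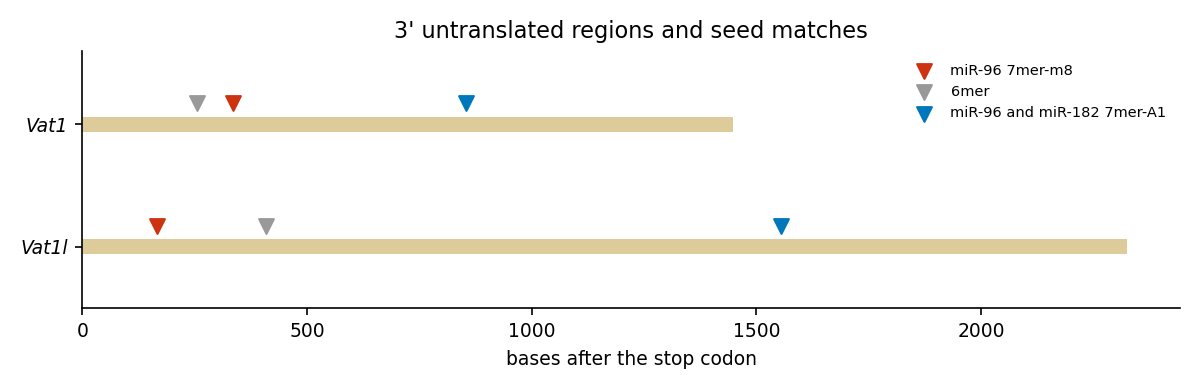
The 3′ UTRs of Vat1 (1448 bases) and Vat1l (2326 bases), drawn to scale as bars from the stop codon, with seed matches as triangles coloured by kind. Each UTR carries 3 matches, and the miR-96 7mer-m8 match lies upstream of the 7mer-A1 match in both.

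The paralogs differed in the order, place and surroundings of the sites. In Vat1 the sites began at bases 254, 336 and 853 after the stop codon, and the 6mer came first. In Vat1l they began at bases 166, 408 and 1554, and the 7mer-m8 came first. As a share of UTR length, the 7mer-m8 lay at 23.2% in Vat1 and at 7.14% in Vat1l, and the 7mer-A1 at 58.9% and 66.8%. The 60 bases flanking the Vat1 sites were 31.7% (6mer), 40.0% (7mer-m8) and 38.3% (7mer-A1) A or T. Around the Vat1l sites these shares were 48.3% (6mer), 56.7% (7mer-m8) and 56.7% (7mer-A1). Over all 6027 sites of 7 or 8 bases in tested genes the median was 55.0%, with quartiles of 48.3% and 63.3%. The Vat1 sites therefore lay in sequence poorer in A and T than the lower quartile, and the Vat1l sites between the quartiles or at the lower one.

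Single sites of these kinds were common. Of 11978 tested genes with an annotated 3′ UTR, 9.15% held GTGCCAA (the miR-96 7mer-m8), 13.3% TGCCAAA (the 7mer-A1, which also lies within an 8mer) and 31.9% TGCCAA (the 6mer, which lies within both), searched on the strand of the message only. The UTR of Vat1 was longer than 61.6% of these UTRs and that of Vat1l longer than 78.2%. Among genes with a UTR within 20% of the length of Vat1's, 9.13% of 1741 had as many as 2 sites of 7 or 8 bases for the cluster. Among genes with a UTR within 20% of Vat1l's, 17.2% of 1596 did. Exactly 1 miR-96 7mer-m8 and 1 shared 7mer-A1, with no other site of 7 or 8 bases, was found in 42 genes, 0.351% of the 11978, and both paralogs were among them. The 6mer was not counted here. This share is for an exact set, so it is not comparable with the motif shares above, which count UTRs with any copy.

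Vat1 was higher in every miR-CKO library. Its level was 18.3, 18.5 and 21.7 RPKM in controls 1 to 3 and 66.2, 53.5 and 48.7 RPKM in miR-CKO 1 to 3. The groups did not overlap, and the lowest miR-CKO library was 2.25 times the highest control. The mean was 19.5 ± 1.91 RPKM in controls and 56.1 ± 9.03 RPKM in miR-CKO (SD, n = 3 each), a ratio of 2.88. The difference was 1.47 (SE 0.12) on the log2(RPKM + 1) scale on which all genes were fitted, the sixth highest of the 13118. Vat1 stood above 68.0% to 72.5% of tested genes in the controls and above 89.6% to 93.0% in miR-CKO.

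Vat1l differed in the same direction by less. Its level was 10.2, 9.74 and 10.2 RPKM in controls 1 to 3 and 18.5, 18.8 and 13.9 RPKM in miR-CKO 1 to 3. The groups did not overlap here either, and miR-CKO 3 was the lowest of its group for Vat1l, as it was for Vat1. The mean was 10.04 ± 0.259 RPKM in controls and 17.1 ± 2.72 RPKM in miR-CKO (SD, n = 3 each), a ratio of 1.70. The log2 difference was 0.70 (SE 0.12), rank 50 from the top. Its lowest miR-CKO library was 1.37 times its highest control. In the controls Vat1l sat above 46.1% to 49.6% of tested genes, in miR-CKO above 58.8% to 69.2%.

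Groups that do not overlap with miR-CKO higher were found for 4.63% of the tested genes. Of the 2 paralogs only Vat1 was among the 7 genes (0.0534%) that limma called higher at a Benjamini-Hochberg adjusted p under 0.05, and Vat1l was not. Nothing is read from these counts, since both genes were chosen from this contrast. Vat1 was not past that threshold in 5 of the 6 fits that leave out 1 library (all but the fit without miR-CKO 1), nor with upper quartile scaling, with the replicate block, without the trend and robust settings, or without controls 2 and 3.

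Because the difference was larger for Vat1, its ratio to Vat1l also differed. The ratio of Vat1 to Vat1l RPKM was 1.79, 1.90 and 2.13 in controls 1 to 3 and 3.58, 2.85 and 3.50 in miR-CKO 1 to 3. The lowest miR-CKO ratio lay above the highest control ratio, with means of 1.94 ± 0.172 and 3.31 ± 0.401 (SD, n = 3 each). Since RPKM is per length, Vat1 was the more abundant message of the pair in each of the 6 libraries. Over 3 libraries per group, the spread of each gene was wider in miR-CKO than in controls, which was not tested. The coefficient of variation (SD over mean) was 9.80% in controls and 16.1% in miR-CKO for Vat1, and 2.58% and 15.9% for Vat1l.

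**Figure D2:**
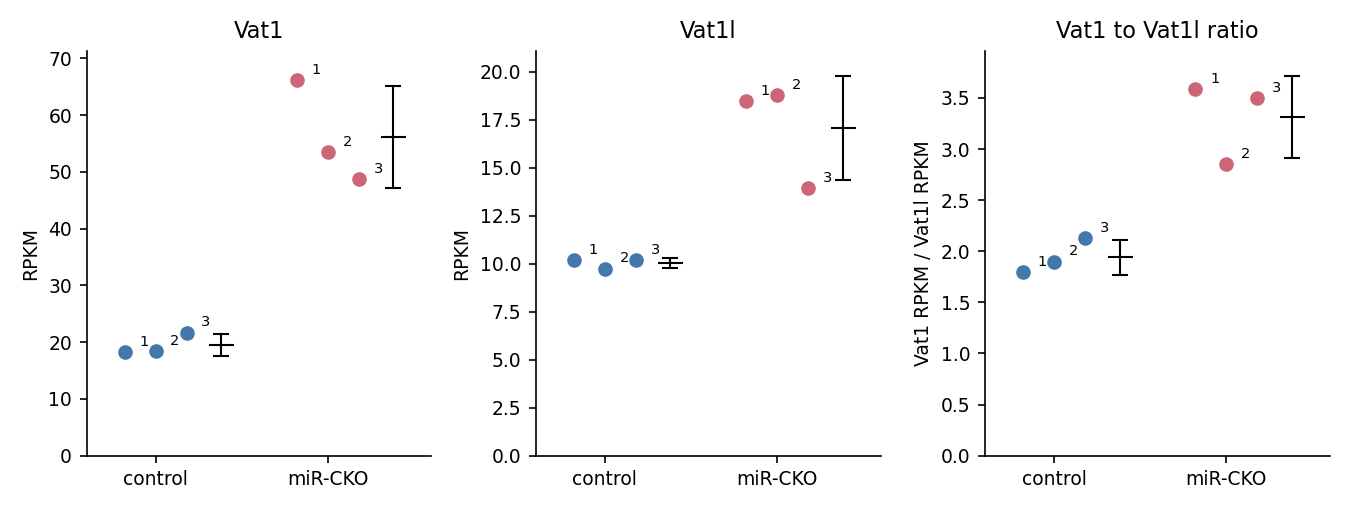
Levels of Vat1 and Vat1l in RPKM and their ratio in each library (points, numbered by replicate), with the group mean and SD beside them (n = 3 each). In every panel the 3 miR-CKO libraries lie above the 3 controls, and the gap is widest for Vat1 (19.5 against 56.1 RPKM on average).

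Counting error was small beside these differences. The depth was estimated from the values at 20.2 to 24.3 M reads per library, and its absolute scale is uncertain. By this estimate Vat1 rested on about 1097 to 1242 reads in each control and 2809 to 4122 in each miR-CKO library. Vat1l rested on about 754 to 867 and 1064 to 1529 reads. The counting error was then 1.56% to 3.02% of the level for Vat1 and 2.56% to 3.64% for Vat1l. Control 2, the only library titled WT, had Vat1 at 18.5 RPKM, between the 2 Cre-carrying controls. Its Vat1l was at 9.74 RPKM, below the 10.2 RPKM of both. An effect of the Cre was not tested.

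Libraries differed in tissue makeup. The summed level of 14 sensory neuron markers, led by Tubb3, a neuronal tubulin, was 2291 to 2878 RPKM in controls and 2221 to 3186 RPKM in miR-CKO, so it overlapped between groups where Vat1 and Vat1l did not. Within miR-CKO this sum was highest in replicate 1 and lowest in replicate 3, the order of Vat1. Vat1l was also lowest in replicate 3, with 18.5 RPKM in replicate 1 close to 18.8 RPKM in replicate 2. Within controls the sum was highest in replicate 3, as Vat1 was, and lowest in replicate 2, as Vat1l was. Vat1 was about as low in replicate 1 (18.3 RPKM) as in replicate 2 (18.5 RPKM). Whether tissue makeup accounts for these orders was not tested. The 10 glial markers, led by Fabp7, summed to 877 to 1152 and 925 to 1045 RPKM. The 10 skeletal muscle markers, led by Acta1, summed to 31.2 RPKM in control 1, 183 and 141 RPKM in controls 2 and 3, and 29.6 to 42.2 RPKM in miR-CKO, with 8 of 8 tested below 0 in log2 difference, 0 called lower (0.00762% of all tested genes) and 2 lower at an unadjusted p under 0.05 (2.31% of all). Of all tested genes 40.4% were above 0. By the same measures, the 12 mesenchyme markers, led by Col3a1, summed to 239 to 436 and 209 to 311 RPKM, with 11 of 11 tested below 0, 0 called and 0 at an unadjusted p under 0.05. Endothelial (91.4 to 106 and 90.3 to 130 RPKM, led by Cdh5) and red cell sums (2155 to 10718 and 3800 to 7364 RPKM, led by Hbb-y) overlapped. The 8 spinal cord markers, led by Pax6, summed to 1.81 to 2.77 and 1.44 to 4.70 RPKM, and Mnx1, a motor neuron factor, was listed at 0 in all 6. Xist, the RNA of the inactive X, was at 96.0 RPKM in miR-CKO 1, the library with the highest Vat1, and at most 0.0890 RPKM elsewhere. Without controls 2 and 3 the log2 difference was 1.56 for Vat1 and 0.68 for Vat1l, about as large as with them, and without miR-CKO 1 it was 1.35 and 0.64. In bulk tissue, a change in the number of cells that express a gene and in its RNA per cell cannot be told apart.

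Among the other enzymes of the superfamily no gene came near these differences. Of 17 listed, 14 were in the table and 10 were tested. None was called by limma in either direction (of all tested genes 0.061% were called, 0.0534% higher and 0.00762% lower) and 0 had an unadjusted p under 0.05, with 1 above 0 and 9 below. Their median log2 difference was -0.10, beside -0.02 over all tested genes, and they ranged from -0.30 to 0.09. Sord, sorbitol dehydrogenase, was the lowest, at 10.8 ± 1.27 RPKM in controls and 8.74 ± 2.31 RPKM in miR-CKO (SD, n = 3 each). Cryzl1, a quinone oxidoreductase relative of Vat1, was the highest, at 14.5 ± 0.647 and 15.6 ± 0.592 RPKM. Ptgr2, a prostaglandin reductase, had a log2 difference of -0.15.

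By level, Vat1 stood higher within this superfamily in miR-CKO. In controls it was the third of the 16 genes in the table, after Adh5, a glutathione-dependent formaldehyde dehydrogenase, at 82.6 ± 1.84 RPKM and Fasn, fatty acid synthase, at 60.2 ± 3.78 RPKM. In miR-CKO Adh5 was at 76.4 ± 5.76 RPKM and Fasn at 55.5 ± 9.82 RPKM, the latter within the spread of Vat1's 56.1 ± 9.03 RPKM (SD, n = 3 each). Vat1l was the seventh in controls and the fourth in miR-CKO, where its 17.1 ± 2.72 RPKM lay within its SD of the 15.6 ± 0.592 RPKM of Cryzl1 and the 15.3 ± 2.64 RPKM of Zadh2. Adh1, Adh4 and Adh7 had means under 1 RPKM, and Adh6a was listed at 0 in all 6 libraries. Of the 10 tested relatives 4 held a site of 7 or 8 bases for the cluster, 2 sites each in Rtn4ip1, Ptgr2 and Zadh2 and 1 in Fasn. Over all 11978 tested genes with a UTR, 32.6% held such a site. The log2 differences of these 4 were -0.0015, -0.15, -0.08 and -0.13. Since 9 of the 10 tested relatives were below 0, nothing is read from this about the sites.

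**Figure D3:**
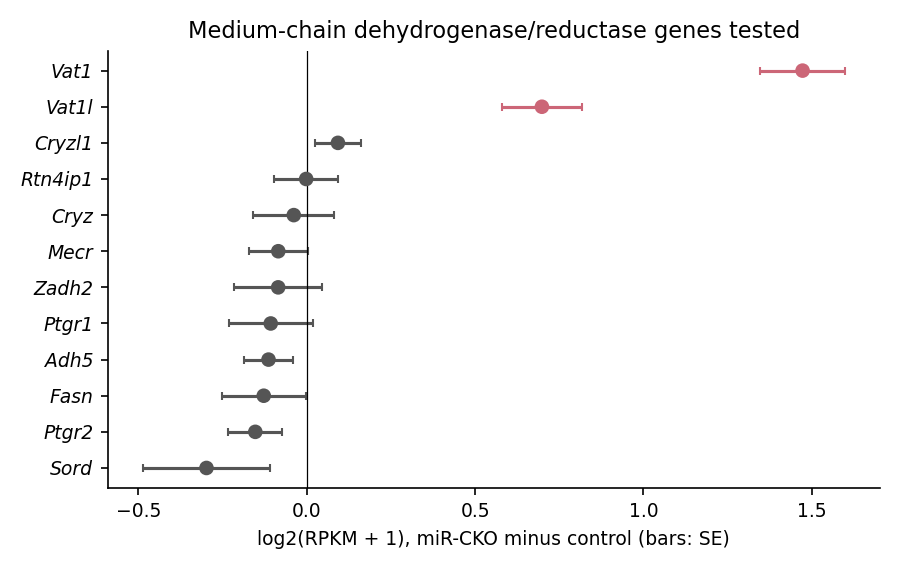
The log2(RPKM + 1) difference, miR-CKO minus control, of the 12 tested medium-chain dehydrogenase/reductase genes, with standard errors from the limma fit as bars. Vat1 (1.47) and Vat1l (0.70) lie apart from the 10 other genes, which range from -0.30 to 0.09.

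Genes of 4 lists, drawn up around the known roles and the name of VAT1, were then examined. None was called, as for nearly all genes (0.061% of all tested genes were called). Of the mitochondrial fusion genes 6 of 7 were tested, all 6 below 0, with a median log2 difference of -0.03 (-0.02 over all genes) and 1 gene lower at an unadjusted p under 0.05 (2.31% of all genes). Mfn2, a mitofusin of the outer membrane, was at 23.6 RPKM in controls and 23.1 RPKM in miR-CKO (log2 difference -0.03). Opa1, the fusion GTPase of the inner membrane, had -0.02, Yme1l1, a protease that cleaves it, -0.06, and Afg3l2, a subunit of another inner membrane protease, -0.16 (limma unadjusted p = 0.036). The 11 fission genes had a median of -0.04, with 2 above 0 and 9 below and 1 gene lower at an unadjusted p under 0.05. Dnm1l, the fission GTPase, had -0.03, and its membrane receptors Fis1 and Mff had -0.04 and 0.001. Mief2, listed as Smcr7, had 0.16, Mtfr2, listed as Fam54a, -0.11, and Mtfr1l, listed as Fam54b, -0.15.

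Among 14 genes of phosphatidylserine synthesis and transfer the median log2 difference was 9.7e-05, with 7 above 0 and 7 below. At an unadjusted p under 0.05, 2 were higher (2.85% of all genes) and 1 was lower. Osbpl5, which exchanges phosphatidylserine at the plasma membrane, was at 9.04 and 11.2 RPKM (log2 difference 0.27). Prelid3b, listed as Slmo2 and the carrier of phosphatidylserine between the mitochondrial membranes, was at 26.4 and 31.0 RPKM (0.23). Its partner Triap1 was at 20.6 and 17.6 RPKM (-0.22). Prelid2 had -0.28, Prelid1, the phosphatidic acid carrier, -0.12 and Ptdss1, a phosphatidylserine synthase, 0.09.

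Of the vesicular transporters and SV2 proteins, which share the synaptic vesicle with the first described VAT-1, 8 of 13 were tested, with a median log2 difference of 0.10, 6 above 0 and 2 below. Slc17a7, the vesicular glutamate transporter VGLUT1, was at 4.13 RPKM in controls and 6.27 RPKM in miR-CKO (0.49, limma unadjusted p = 0.014, not called after adjustment). Slc17a6, the glutamate transporter that prevailed in these ganglia, was at 35.3 and 36.6 RPKM (0.05). Sv2a had 0.25, Sv2c 0.15 and Sv2b -0.30, and Slc18b1, a polyamine transporter listed under a Rik symbol, 0.27. Slc18a2, the vesicular amine transporter that the name of Vat1 recalls, was at 3.73 and 3.81 RPKM.

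The neighbours on the chromosome were few and none was called, as for nearly all genes. Within 100 kb of the start of Vat1, 14 genes were annotated, 9 were in the table and 7 were tested, with 0 called (0.061% of all tested genes) and 0 at an unadjusted p under 0.05 (2.85% higher and 2.31% lower of all). Their log2 differences ran from -0.11 (Rpl27, a ribosomal protein) to 0.27 (Rnd2, a small GTPase), with a median of 0.02. Rnd2 starts 1231 bases from the start of Vat1 on the opposite strand. It was at 16.3, 14.5 and 15.8 RPKM in controls and 18.6, 14.2 and 25.2 RPKM in miR-CKO, so its groups overlapped. Nbr1, an autophagy receptor, had 0.07, Ifi35 0.02, Aarsd1 -0.03 and Rundc1 -0.09. Vat1l had a single neighbour in the window, Nudt7, a peroxisomal hydrolase, at -0.10.

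The 40 other genes with the paralogs' set of longer sites, as counted above without the shortest kind of match, were set beside them. They need not hold the shortest match of the paralogs. Their median log2 difference was 0.06, with quartiles of -0.01 and 0.12, and 28 of 40 were above 0, beside 40.4% of all tested genes. Groups did not overlap with miR-CKO higher for 8 of the 40 (4.63% of all genes) and with miR-CKO lower for 0 (6.24%). The highest of them was Nhlh2, a neuronal helix-loop-helix factor, at 82.2, 74.1 and 76.3 RPKM in controls and 106, 95.1 and 86.6 RPKM in miR-CKO, a log2 difference of 0.30. Vat1 and Vat1l had the highest differences of the 42 genes, 1.47 and 0.70. Both were chosen from this contrast, so nothing is read from this order. The 40 other genes had a median UTR length of 2670.5 bases and a median level of 14.3 RPKM, beside 11.2 RPKM over all genes with a UTR. Among genes with a UTR like Vat1's in length the median was 0.06 for the 159 with 2 or more sites and -0.03 for the 1111 with none. For genes with a UTR like Vat1l's it was 0.02 for 274 and -0.03 for 776.

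**Figure D4:**
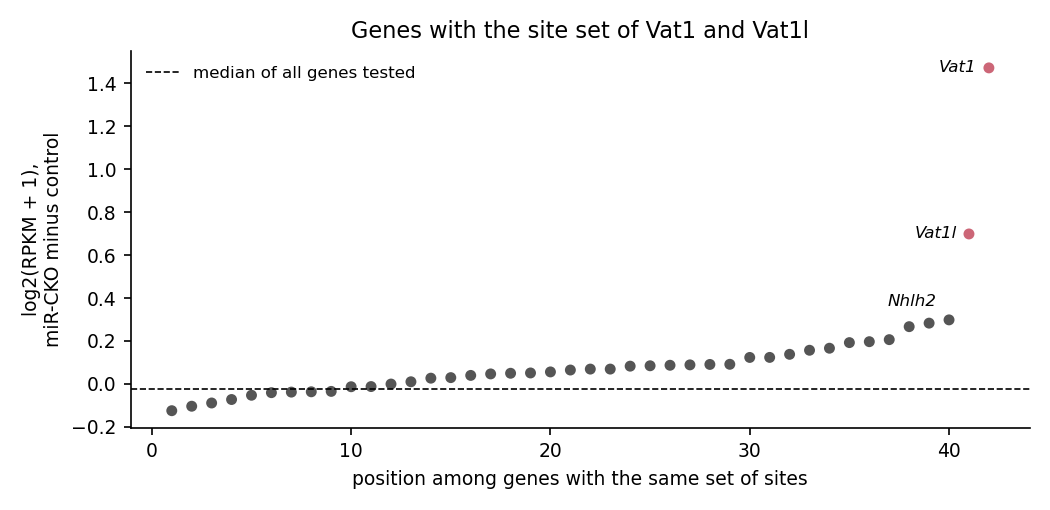
The log2(RPKM + 1) difference of the 42 genes whose 3′ UTR holds exactly the longer sites of Vat1 and Vat1l, in rising order. The shortest kind of match was not counted, and the median of all tested genes is a dashed line. Vat1 (1.47) and Vat1l (0.70), both chosen from this contrast, lie above the other 40, of which Nhlh2 was highest at 0.30.

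The genes whose pattern over the 6 libraries was most like each paralog were named by the root mean square (RMS) difference of their log2(RPKM + 1) profiles after subtracting each gene's mean. Nearest to Vat1 were Nova2, a neuronal splicing factor, at an RMS of 0.19, Jazf1, a nuclear zinc finger protein, at 0.19, and B4galnt1, an enzyme of complex gangliosides, at 0.22. Onecut3, a homeodomain factor, followed at 0.25, then Clvs2, Camk2n1, Tmem198, Tmem35 and Slc25a1 at 0.30 to 0.33. A flat line lay 0.75 from Vat1 and the median gene 0.78. Nova2 was at 4.73, 5.06 and 4.79 RPKM in controls and 22.4, 15.2 and 18.1 RPKM in miR-CKO, so it was highest in miR-CKO 1, as Vat1 was, but lowest in miR-CKO 2. Jazf1 was at 2.66, 2.00 and 2.67 RPKM and 8.04, 6.0 and 5.73 RPKM, with the order of Vat1 in miR-CKO. Slc25a1, the mitochondrial citrate carrier, was the most abundant of these 9, at 24.7, 25.7 and 24.4 RPKM and 50.8, 46.8 and 40.7 RPKM.

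Nearest to Vat1l were Mob3a at an RMS of 0.08, Resp18, a neuroendocrine secretory protein, at 0.09, Celf6, an RNA-binding protein, at 0.10, Arl10 at 0.10 and Spry3, of the Sprouty family of signalling inhibitors, at 0.10, beside 0.37 for a flat line. Resp18 was at 9.87, 8.71 and 10.1 RPKM in controls and 17.9, 18.8 and 15.5 RPKM in miR-CKO, close to Vat1l in level as well as in pattern. Mob3a was at 17.8, 19.3 and 18.2 RPKM and 32.2, 30.2 and 25.02 RPKM. The paralogs themselves were 0.41 apart. Of 12153 genes Vat1l was the 24th nearest to Vat1. Vat1 was only the 5879th nearest to Vat1l, about as far as the median gene (0.41) and farther than a flat line. The profiles were centred but not scaled, so this distance also reflects the size of the group difference, 1.47 for Vat1 and 0.70 for Vat1l. The genes named as nearest were chosen by the same libraries, so their likeness is a description over 6 points.

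Sequence was not used to choose these genes. A site of 7 or 8 bases for the cluster was present in 9 of the 9 genes named as nearest to Vat1 (the tenth is not reported here), from 1 in Clvs2, Camk2n1, Tmem198 and Tmem35 to 5 in Nova2, beside 32.6% of the 11978 genes. Of the 5 nearest to Vat1l, 4 had an annotated 3′ UTR and 2 of them a site, 4 sites in Mob3a and 3 in Celf6, and none in Resp18 or Arl10, whose UTRs were 112 and 234 bases long. None of these lists was tested against chance.

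**Figure D5:**
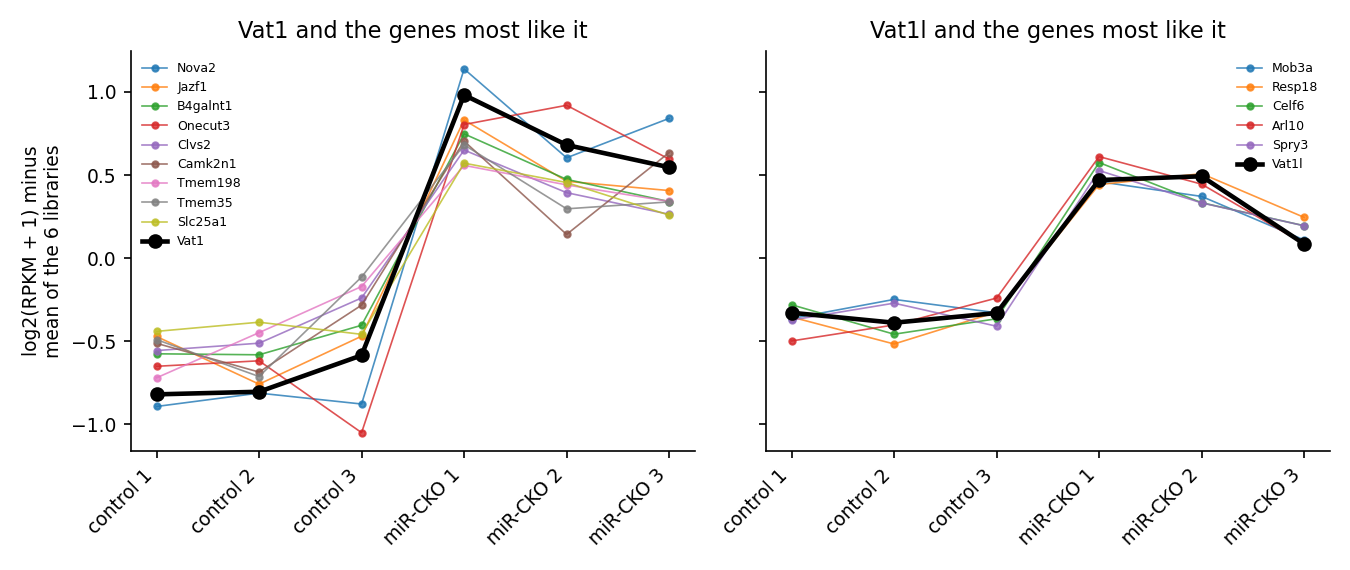
Profiles of Vat1 with its 9 nearest genes and of Vat1l with its 5 nearest genes over the 6 libraries, as log2(RPKM + 1) minus each gene's mean, with the paralogs in black. All profiles lie below 0 in the controls and above 0 in miR-CKO, and Vat1 and Vat1l are each lowest of the miR-CKO libraries in replicate 3.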

How the data were processed

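Vat1 and Vat1l, and the gene lists set beside them, were chosen with earlier results of these data known. The submitters' processing notes name Bowtie and mm10, with no version; counter and annotation are not stated there or in the labels. The deposited file, made by the authors, was 1 table without a stated unit (recorded as another unit, since its numbers have decimal commas). Its values were read as RPKM because low values of 99.6% of 4062 low genes were whole multiples of a step, within 0.01 read, and this step fell with transcript length (Spearman rho -0.900 over 1038 genes with 1 transcript). These steps gave relative depth; the absolute depth rests on annotated lengths and is uncertain, since at the depth chosen only 8.96% of low values of genes with 1 transcript came out whole. RPKM and FPKM cannot be told apart.

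Values were fitted as log2(RPKM + 1) with limma 3.58.1 in R 4.3.3 (trend, robust, Benjamini-Hochberg threshold 0.05) on 3 against 3 libraries and checked on simulated data. Fold changes on this scale understate low genes. Exact seed matches were searched in the 3′ UTR of the longest coding transcript (GENCODE M21) with Python 3.11.15, NumPy 2.4.6 and pandas 2.3.3; figures used matplotlib 3.10.9. In each list the 3 members with the largest absolute difference and the 3 with the highest level were named, with 6 of the 7 tested neighbours of Vat1 and that of Vat1l, the 10 genes nearest to Vat1, of which 1 is not reported here, and the 5 nearest to Vat1l (Gm and Rik symbols left out) and the leading marker of each cell type. Other genes were named after their values were seen (Mnx1, Olig2, Dbx1, Xist, Ddx3y, Kdm5d, Uty, Eif2s3y, Nhlh2, Slc18a2, Triap1, Cryzl1, Rtn4ip1, Adh1, Adh4, Adh6a, Adh7). Alternatives were pseudocount, filter, scaling, model settings, replicate block, each library left out, all transcripts and a narrower UTR length window. Removing controls 2 and 3 was added after seeing the data.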

Additional observations from a re-analysis of the deposited data

How the results depend on the processing

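Over all 15 alternatives the log2 difference ran from 1.35 to 1.57 for Vat1 and from 0.63 to 0.83 for Vat1l, the extremes coming from leaving out 1 library. Since their groups do not overlap, leaving out libraries could not reverse the direction of Vat1 or Vat1l. Their 2 sites of 7 or 8 bases were the same over all annotated transcripts, and with UTR lengths within 10% the shares with as many sites were 9.20% and 17.1%, but the median log2 difference of those genes was 0.03 for Vat1 (0.06 as reported) and 0.01 for Vat1l (0.02). The number of genes called by limma, 8 as reported, was less stable: median centring gave 2, upper quartile scaling 0 (698 at an unadjusted p under 0.05), no trend and not robust 0 (709), the replicate block 0 (847), and removing controls 2 and 3, chosen after seeing the data, 0 (395). Leaving out 1 library gave 0 to 2 calls (440 to 1023 at an unadjusted p under 0.05), with 0 without control 3, miR-CKO 2 or miR-CKO 3, and Vat1 was called in 1 of these 6 fits; the cause was not tested. Vat1l was called in none of the fits. Pseudocounts of 0.1 and 0.5, no filter and a mean of at least 10 RPKM gave 7, 8, 9 and 7. No list had a called gene in any of 80 fits of a list under a setting. The list medians ranged from 0.02 to 0.19 for vesicular transporters, -0.13 to -0.04 for the superfamily, -0.08 to -0.002 for fusion, -0.07 to -0.01 for fission and -0.06 to 0.03 for phosphatidylserine. Median centring put 52.1% of genes above 0, beside 40.4%. Same-numbered libraries deviated with r of 0.36, 0.33 and -0.22 across 13118 genes, and not every library was nearest to its own number, so the numbers were not taken as pairs.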
